A study of Mus musculus with 2208 samples.

Results

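The microglial identity transcription factors described here are 9 genes: the zinc finger repressors Sall1 and Sall3, the MADS-box factors Mef2a and Mef2c, the ETS factor Spi1 (PU.1), the large Maf protein c-Maf (Maf), the runt factor Runx1, and the C/EBP factors Cebpa and Cebpb. They were chosen by symbol, with earlier results of these data known. All 9 were among the 23951 genes of the expression table and among the 9435 that passed a filter on low values. PU.1 and Runx1 act early in the myeloid lineage, and PU.1 opens most macrophage enhancers. Signals of the brain then add SALL1, MEF2 and MAF binding partners, which set the microglial programme apart from that of other macrophages, and SALL1 is known to hold genes of the resting (homeostatic) state on. C/EBP alpha belongs to myeloid differentiation, while C/EBP beta is known as an inducible factor at inflammatory genes.

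Single microglia had been sorted by FACS on CD11b and CD45 from the hippocampus of CKp25 mice and of CK littermates, and sequenced by Smart-seq2. CKp25 is an inducible model of severe neurodegeneration. As background, p25 is an activator of the kinase Cdk5 that is switched on in forebrain neurons, so microglia themselves are not the cells that carry the active transgene, and CK mice carry the driver alone. CK and CKp25 mice were compared at 3 months of age before induction (0 weeks), and at 1 week (3 months and 1 week of age), 2 weeks (3 months and 2 weeks) and 6 weeks (4 months and 2 weeks) of induction. Each group held 3 mice, except CKp25 at 6 weeks with 4, which made 25 mice in 8 groups. The mouse was the replicate throughout.

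The table held FPKM of 2208 wells. The study states 2183 cell libraries at a median of 251353 mapped reads, and 2183 is the number of wells left when the first well of each of the 25 mice is set aside. Of these first wells, 19 listed more than 8000 genes. Wells listing 1000 genes or more (FPKM not below 1) were kept (2028 wells, 41 to 96 per mouse), first wells included, and results were repeated without the first wells. The median number of genes per kept well was 1537.5 to 2994 over the mice. Microglial markers were present: Csf1r was listed at FPKM of 1 or more in 100% of the kept wells of every mouse, P2ry12 in 90.4% to 100% and Tmem119 in 94.7% to 100%. A gene listed at 0 in a well may be a missed transcript, since 90.0% of all values were 0 and Gapdh was at 0 in 24.6% of the wells.

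CK mouse 1 at 1 week and CKp25 mouse 1 at 6 weeks stood apart from the other 23 mice, and the difference touched the factors directly. Spi1 was listed in 23.8% and 24.4% of their cells, against 54.5% to 90.6% in the others. Runx1 was listed in 28.6% and 22.0% of their cells, against 36.4% to 75.4%. Their deviations from their group means correlated at r = 0.57 over 9435 genes, above the next highest pair of mice at 0.40, and 592 genes (6.27% of those tested) were lower in both than in every other mouse. By share of cells, Sall1 and Mef2a were within the range of the other mice in both, while the Sall1 profile value (mean over cells of log2(FPKM + 1)) of CK mouse 1 at 1 week was 5.45, above the 2.93 to 5.41 of the others. Mef2c profile values were 6.47 and 6.48 in the pair, above the 4.03 to 6.19 of the others. In all, 16 genes (0.17% of those tested) were higher in both than in every other mouse. Those of Cebpb were 0.13 and 0.0, against 0.13 to 1.94. Results that turn on the pair are given with and without it.

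**Figure D1:**
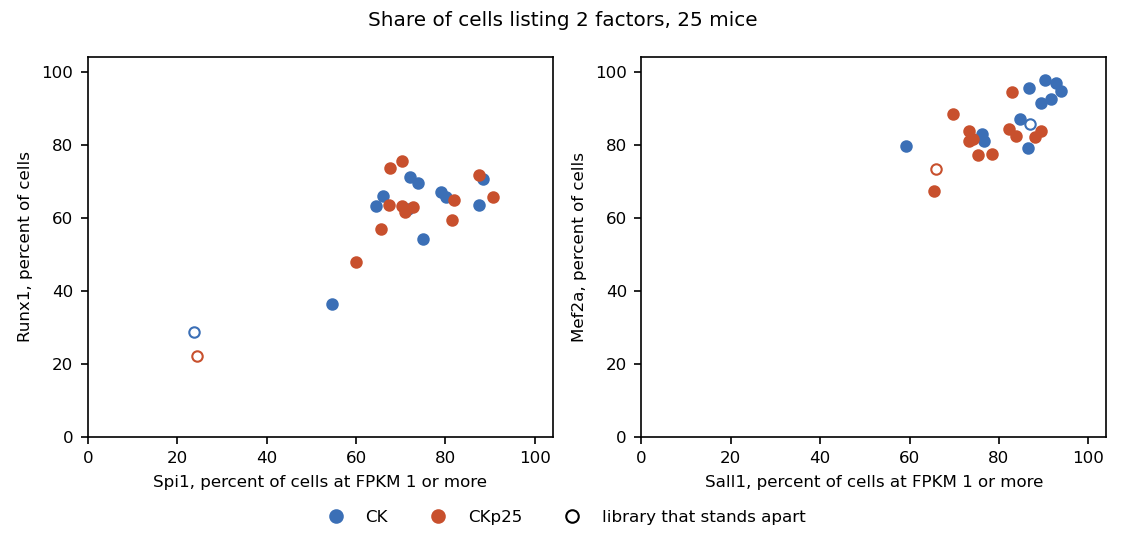
Percent of kept cells listing Spi1 against Runx1 (left) and Sall1 against Mef2a (right) at FPKM of 1 or more, 1 point per mouse, CK in blue and CKp25 in orange. The 2 open points are CK mouse 1 at 1 week and CKp25 mouse 1 at 6 weeks, which lie at 23.8% and 24.4% for Spi1 and away from the other 23 mice on the left but not on the right.

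The factors stood at different levels before induction. In CK mice at 0 weeks, mean FPKM, which is scaled by transcript length, was highest for Spi1 at 158, 154 and 169 in the 3 mice. Mef2c followed at 114, 76.9 and 81.1, Mef2a at 79.4, 51.2 and 68.7 and Sall1 at 72.7, 70.9 and 41.6, and these 3 were not separated in every mouse. Maf (34.6, 42.2 and 28.2) was above Runx1 (21.3, 17.2 and 18.3) and Runx1 above Sall3 (8.26, 14.0 and 13.5) in every mouse, whereas Sall3, Cebpa (6.39, 8.58 and 11.5) and Cebpb (6.45, 9.66 and 7.83) overlapped. Over all 2028 kept wells, Mef2c was listed in 89.1%, Mef2a in 85.7%, Sall1 in 81.8%, Spi1 in 71.8%, Maf in 68.3%, Runx1 in 61.3%, Sall3 in 41.6%, Cebpa in 29.3% and Cebpb in 17.9%. Spi1 thus ranked first by mean FPKM but below Mef2c, Mef2a and Sall1 by share of cells. A median cell listed 6 of the 9 factors, and 2 cells listed none.

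The comparison of genotypes asked whether the factors changed as neurodegeneration proceeded. Levels were compared as profile values, the mean over a mouse's kept cells of log2(FPKM + 1), and a difference was called at an adjusted p under 0.05 (limma over 9435 genes, Benjamini-Hochberg). None of the 9 was called before induction (0% of all genes were lower, the lowest adjusted p of a member was 1, and 0 members had an unadjusted p under 0.05, as 1.07% of all genes did). Maf was called lower at 1 week, Sall1 and Mef2a were called lower at 2 weeks, and none was called at 6 weeks, where 3 members had an unadjusted p under 0.05 (15.8% of all genes). The calls stand against a background in which 0.392% of all tested genes were called lower at 1 week, 2.24% at 2 weeks and 1.54% at 6 weeks. No factor was called higher at any week, although more genes in the whole table were called higher than lower (3.9%, 6.14% and 4.21%). The median difference of the 9 was 0.05, -0.45, -0.73 and -0.82 at 0, 1, 2 and 6 weeks, and that of all tested genes was 0.03, 0.06, -0.00 and -0.04.

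**Figure D2:**
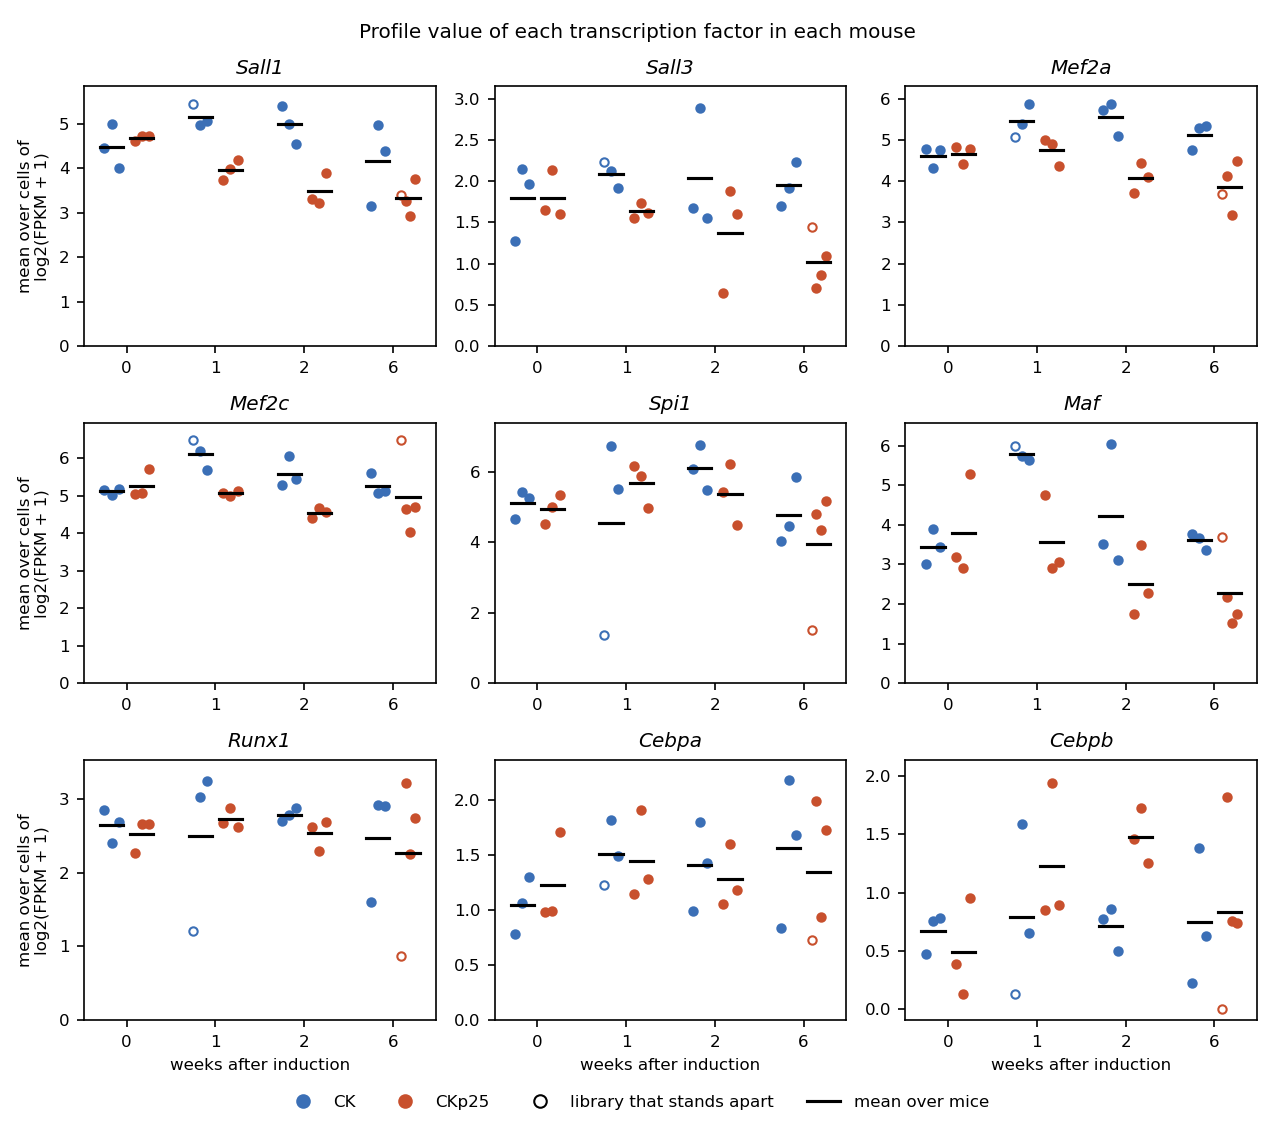
Profile value (mean over kept cells of log2(FPKM + 1)) of each factor in each mouse by week after induction, CK in blue and CKp25 in orange, with the mean over mice as a bar and the 2 libraries that stand apart as open points. Sall1 and Mef2a of the CKp25 mice lie below all CK mice at 1 and 2 weeks, Cebpb of the CKp25 mice lies above all CK mice at 2 weeks, and the open points of Spi1 lie at 1.38 and 1.52.

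Sall1, the factor tied most closely to microglial identity within the brain, was called lower in CKp25 mice at 2 weeks, and its difference was also below 0 at 1 and 6 weeks. At 0 weeks its profile value was 4.46, 5.01 and 4.00 in CK mice and 4.61, 4.72 and 4.73 in CKp25 mice. At 2 weeks it was 5.41, 5.0 and 4.56 in CK mice and 3.32, 3.23 and 3.90 in CKp25 mice. The highest CKp25 mouse was below the lowest CK mouse, as for 1051 of the 9435 tested genes. The Sall1 difference was -1.51 ± 0.45 (SE), called at an adjusted p of 0.0272 (limma). Sall1 was listed in 93.8%, 92.7% and 84.8% of the cells of CK mice and in 73.4%, 69.8% and 83.8% of the cells of CKp25 mice at that week, and mean FPKM over mice was 64.9 against 29.3. Mean FPKM was lower across the table at that week, with a median CKp25 to CK ratio of 0.73 over all tested genes. The call was lost on leaving out CK mouse 1, CKp25 mouse 1 or CKp25 mouse 2 of that week in turn (adjusted p up to 0.153 over all omissions, with differences of -1.72 to -1.30), and also with log2 of the mean FPKM (-1.12, adjusted p = 0.0584) and in a fit of the 2 groups alone (adjusted p = 0.0614).

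At 1 week Sall1 stood at 5.45, 4.97 and 5.06 in CK mice and 3.74, 3.99 and 4.19 in CKp25 mice. The genotypes did not overlap there, which held for 7.94% of all tested genes in this direction, but the difference of -1.19 ± 0.45 was not called (adjusted p = 0.137, limma). At 6 weeks the CKp25 mice were at 3.41, 3.27, 2.93 and 3.77. The CK mice were at 3.15, 4.97 and 4.40, with mouse 1 inside the CKp25 range, and the difference of -0.83 ± 0.42 was not called (adjusted p = 0.338, limma). That CK mouse had 44 kept cells.

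Sall3, a paralog of Sall1 with a lower level, was listed in fewer cells of CKp25 than of CK mice at 6 weeks. It was listed in 29.3%, 21.1%, 25% and 28.4% of the cells of the CKp25 mice and in 36.4%, 46.8% and 58.2% of the cells of the CK mice, without overlap (4.41% of all genes, lower). The exact permutation p of these shares was 0.0286, the smallest that 3 against 4 mice allow, and 0.466 after adjustment over all genes. The profile value differed by -0.92 ± 0.31 and was not called (adjusted p = 0.0781, limma). Without the 2 libraries that stand apart the difference was -1.06 ± 0.33 with an adjusted p of 0.0456, which is past the threshold (limma; 1.25% of all genes were then called lower), as it was in 7 of 18 alternative settings in all. At 1 and 2 weeks Sall3 differed by -0.45 ± 0.34 and -0.67 ± 0.34, neither called (adjusted p = 0.521 and 0.256, limma).

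MEF2 factors bind enhancers of the microglial programme, and MEF2C is known to restrain inflammatory responses of microglia. The profile value of Mef2a at 2 weeks was 5.72, 5.87 and 5.1 in CK mice and 3.72, 4.45 and 4.09 in CKp25 mice. All 3 CKp25 mice were below all CK mice, as for 1051 of the 9435 tested genes. The Mef2a difference was -1.47 ± 0.44, called at an adjusted p of 0.0276 (limma). Mean FPKM was 98.3, 99.3 and 76.7 in CK mice and 31.1, 38.0 and 42.9 in CKp25 mice. By this measure 22% of all genes were lower in every CKp25 mouse than in every CK mouse. The call was lost on leaving out CK mouse 1, CK mouse 2, CKp25 mouse 1 or CKp25 mouse 3 of that week (adjusted p up to 0.123), with a pseudocount of 0.1 (adjusted p = 0.0606) and in a fit of the 2 groups alone (adjusted p = 0.0761). At 6 weeks Mef2a was at 4.76, 5.28 and 5.33 in CK mice and at 3.68, 4.12, 3.18 and 4.50 in CKp25 mice, again without overlap (6.68% of all genes, lower). The difference of -1.25 ± 0.41 was not called with an adjusted p of 0.0651 (limma), and it was called in 11 of 18 alternative settings. It was not called without the 2 libraries that stand apart (-1.19 ± 0.44, adjusted p = 0.118).

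Mef2c was not called at any week. At 1 week its profile value was 6.47, 6.19 and 5.69 in CK mice and 5.06, 5.0 and 5.13 in CKp25 mice. At 2 weeks it was 5.27, 6.05 and 5.43 against 4.41, 4.66 and 4.55. The genotypes did not overlap at either week, as for 7.94% of all genes in this direction at 1 week. At 2 weeks 24.1% of all genes did not overlap, 1051 of them lower and 1219 higher in CKp25 mice. The differences of -1.06 ± 0.48 and -1.04 ± 0.48 were not called (adjusted p = 0.238 and 0.202, limma). Without the 2 libraries that stand apart the difference at 1 week was -0.88 ± 0.48, also not called (adjusted p = 0.44, limma). At 6 weeks the difference was -0.31 ± 0.45 over all mice. CKp25 mouse 1, which stands apart, was then at 6.48, above the 4.03 to 4.69 of the other 3 CKp25 mice, and without it and the CK library the difference was -0.81 ± 0.43 with the genotypes apart (9.17% of all genes, lower), not called (adjusted p = 0.383, limma).

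Sall1 and Mef2a are shown with the 250 bases before a transcription start site because they were the pair called lower at 2 weeks. The windows come from RefSeq (GRCm38.p6), both on the minus strand, Mef2a at chr7:67372859-67373108 and Sall1 at chr8:89044163-89044412 (the first of 3 windows listed for the gene). They are written 5′ to 3′ toward the start site, and capitals mark GAGGAA, a core of PU.1 and other ETS sites.
Mef2a: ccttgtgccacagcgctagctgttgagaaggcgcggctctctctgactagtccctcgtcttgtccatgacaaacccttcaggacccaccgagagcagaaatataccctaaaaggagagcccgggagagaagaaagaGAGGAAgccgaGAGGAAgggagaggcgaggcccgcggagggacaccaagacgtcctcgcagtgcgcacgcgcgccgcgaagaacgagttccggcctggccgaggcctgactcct
Sall1: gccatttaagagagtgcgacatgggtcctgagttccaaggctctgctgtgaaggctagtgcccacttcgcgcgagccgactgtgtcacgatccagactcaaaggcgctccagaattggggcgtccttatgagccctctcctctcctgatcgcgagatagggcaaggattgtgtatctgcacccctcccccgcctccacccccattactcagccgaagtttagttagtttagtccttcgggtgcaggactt
The Mef2a window held GAGGAA at 2 places, starting at -114 and -103 from the start site, and the Sall1 window held it on neither strand. Of 32851 windows of this length over all genes, 23.3% held GAGGAA on at least 1 strand. The other motifs searched on both strands were the MEF2 motif (3.2% of windows), TGTGGT for RUNX (14%), TTGCNNAA for C/EBP (9.56%), the IRF motif (2.98%) and TGCTGA for MAF (16.1%), and neither window held any of them. Promoters were matched for 6 of the 9 factors, with 11 windows. In the rest, GAGGAA or its complement occurred in 2 of the Mef2c windows and 1 Runx1 window, and TGCTGA in 1 Mef2c window. A match of letters is a description and not a binding site.

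Maf, which encodes c-Maf, a factor of resident macrophages, had the largest difference of the 9 at 1 week. Its profile value was 6.00, 5.73 and 5.63 in CK mice and 4.74, 2.90 and 3.07 in CKp25 mice. It was listed in 85.7%, 93.7% and 88.2% of the cells of CK mice and in 81.4%, 63.6% and 55.9% of those of CKp25 mice, so every CKp25 mouse was below every CK mouse in both measures, as for 7.94% of all genes by profile value and 5.59% by share. The difference was -2.22 ± 0.64, called at an adjusted p of 0.0404 (limma). It was not called when CK mouse 1 and CKp25 mouse 1 at 6 weeks were left out (-2.11 ± 0.68, adjusted p = 0.106), nor when any of the 3 CK mice, CKp25 mouse 2 or CKp25 mouse 3 of that week was left out alone (adjusted p up to 0.222). It was called in 11 of 18 alternative settings. At 0 weeks CK mice were at 3.01, 3.90 and 3.43 and CKp25 mice at 3.18, 2.91 and 5.28. All 3 CK mice at 1 week were above all 3 CK mice at 0 weeks, and the share of all genes that separate so was not counted. That Maf difference of 2.34 ± 0.64 was not called (unadjusted p = 0.000929, adjusted p = 0.296, limma). In the same comparison 10.5% of all genes had an unadjusted p under 0.05. CKp25 mice differed between these weeks by -0.22 ± 0.64.

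Maf stayed variable between mice later on. At 2 weeks CK mice were at 3.51, 6.03 and 3.11 and CKp25 mice at 1.74, 3.49 and 2.28. CK mouse 2 was the high one, and CKp25 mouse 2 overlapped the CK mice. The difference was -1.71 ± 0.64, not called (adjusted p = 0.0995), while leaving out CK mouse 3 brought the adjusted p to 0.0399 (limma). At 6 weeks CK mice were at 3.78, 3.67 and 3.37 and CKp25 mice at 3.68, 2.19, 1.52 and 1.76. CKp25 mouse 1, which stands apart, was the high one. The difference was -1.32 ± 0.60 with it and -1.78 ± 0.61 without the 2 libraries, and neither was called (adjusted p = 0.264 and 0.0889, limma). Without the 2 libraries the genotypes did not overlap, as for 9.17% of all genes in this direction.

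**Figure D3:**
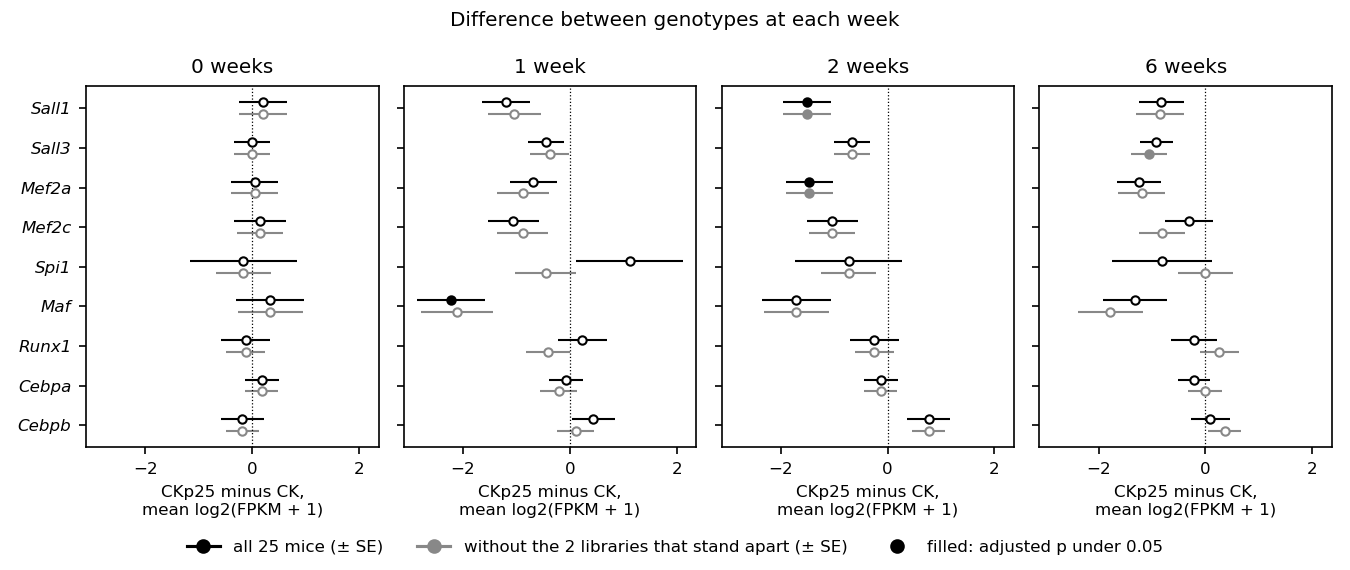
CKp25 minus CK difference in profile value with its SE for each factor at each week, with all 25 mice in black and without the 2 libraries that stand apart in grey. Filled points were called at an adjusted p under 0.05: Maf at 1 week and Sall1 and Mef2a at 2 weeks with all mice, and Sall1 and Mef2a at 2 weeks (2.81% of all genes called lower) and Sall3 at 6 weeks without the pair.

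Spi1 and Runx1, the lineage factors of the set, were not called at any week. Spi1 at 2 weeks was at 6.08, 6.76 and 5.48 in CK mice and 5.43, 6.22 and 4.49 in CKp25 mice, a difference of -0.73 ± 1.00 (adjusted p = 0.752, limma). The 2 libraries that stand apart were at 1.38 and 1.52, and the other 23 mice ran from 4.03 to 6.76. Leaving them out turned the difference at 1 week from 1.12 ± 1.00 to -0.45 ± 0.57, and moved that at 6 weeks from -0.82 ± 0.94 to -0.00 ± 0.51. Runx1 at 2 weeks was at 2.70, 2.78 and 2.87 in CK mice and 2.62, 2.29 and 2.69 in CKp25 mice. The genotypes did not overlap, as for 1051 of the 9435 tested genes in this direction, and differed by -0.25 ± 0.46 (adjusted p = 0.818, limma). Without the 2 libraries the Runx1 difference turned from 0.23 to -0.41 at 1 week, where all CKp25 mice were then below the CK mice (as for 13.6% of all genes), and from -0.21 to 0.26 at 6 weeks, none of them called.

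Cebpb, the inducible C/EBP factor, was the only member with a positive difference at 2 weeks. Its profile value was 0.77, 0.86 and 0.50 in CK mice and 1.46, 1.73 and 1.25 in CKp25 mice. It was listed in 15.6%, 17.7% and 9.78% of the cells of CK mice and in 28.7%, 33.3% and 26.5% of the cells of CKp25 mice. Every CKp25 mouse was above every CK mouse in both measures, as for 12.9% of all genes by profile value and 16.1% by share, and the profile difference of 0.77 ± 0.40 was not called (adjusted p = 0.288, limma). The exact permutation p of the shares was 0.1, the smallest that 3 against 3 mice allow. In CKp25 mice Cebpb at 2 weeks minus 0 weeks was 0.99 ± 0.40 (adjusted p = 0.111, limma). This was called without the 2 libraries that stand apart (0.99 ± 0.31, adjusted p = 0.0272, with 12.4% of all genes called higher). At 1 and 6 weeks the genotypes differed by 0.44 ± 0.40 and 0.09 ± 0.37, and by 0.11 ± 0.35 and 0.36 ± 0.31 without the pair. Values at 6 weeks ran from 0 in CKp25 mouse 1, where no cell listed the gene, to 1.82 in CKp25 mouse 2.

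Cebpa, the C/EBP factor of myeloid differentiation, was not called at any week, and its genotypes overlapped at each. Its profile value at 2 weeks was 0.99, 1.80 and 1.43 in CK mice and 1.06, 1.60 and 1.18 in CKp25 mice. The differences were 0.18 ± 0.32, -0.07 ± 0.32, -0.13 ± 0.32 and -0.22 ± 0.30 at 0, 1, 2 and 6 weeks, and without the pair -0.21 ± 0.35 at 1 week and -0.01 ± 0.31 at 6 weeks. The adjusted p was 0.809 or more at each (limma).

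A profile value joins the share of cells that list a gene and the level in those cells, and the 2 were read separately. At 2 weeks Mef2a was listed in 80.9%, 88.5% and 82.4% of the cells of CKp25 mice and in 94.8%, 96.9% and 87.0% of those of CK mice, which overlapped. Its mean log2 FPKM among cells listing it was 4.49, 4.96 and 4.87 in CKp25 mice and 5.99, 6.01 and 5.81 in CK mice, which did not overlap and differed by -1.16. Sall1 differed by -14.7 percentage points in share and by -0.97 in level. Cebpb differed by 0.02 in level and by 15.1 percentage points in share. A lower level among listing cells at 2 weeks was shared by much of the table: 7 of the 9 factors (all but Maf and Cebpb) were lower in every CKp25 mouse than in every CK mouse, as were 26.4% of all genes, and the median difference was -0.88 for the 9 and -0.43 for all genes. At 6 weeks the only such member was Mef2a, against 3.87% of genes, and Cebpb was not counted there because CKp25 mouse 1 had no cell listing it.

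**Figure D4:**
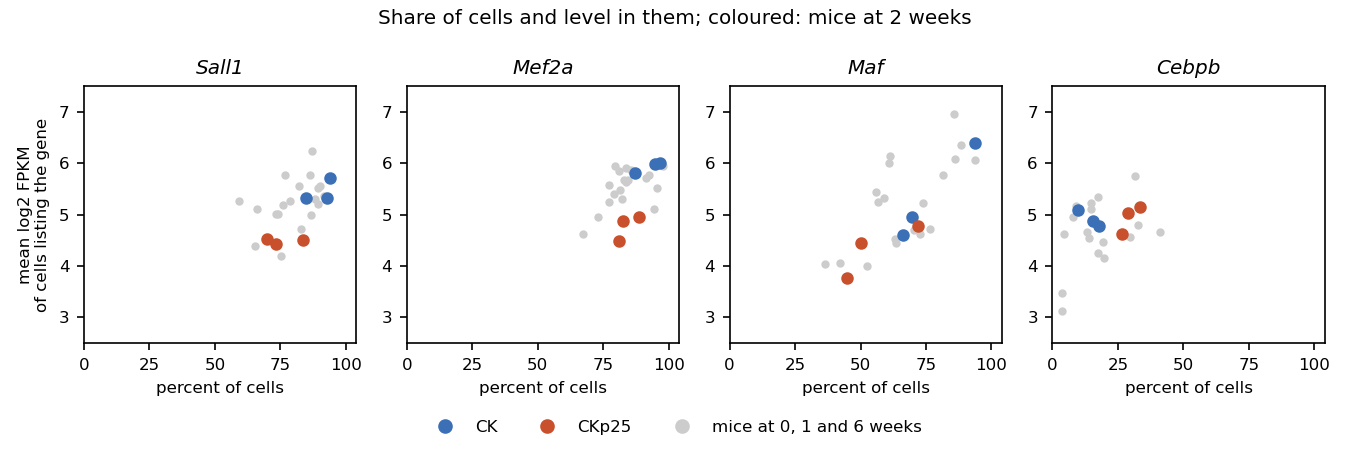
Share of kept cells listing Sall1, Mef2a, Maf or Cebpb (horizontal, percent) against the mean log2 FPKM in those cells (vertical), 1 point per mouse, with mice at 2 weeks in blue (CK) and orange (CKp25) and mice at other weeks in grey. CKp25 mice lie lower for Mef2a and lower and to the left for Sall1, while for Cebpb they lie to the right, with mean levels 0.02 apart.

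The number of genes per cell overlapped between genotypes at the week of the Sall1 and Mef2a calls: the medians per mouse were 2356 to 2930.5 in CK mice and 2502.5 to 2994 in CKp25 mice. Over cells with 1500 to 3500 genes the differences at 2 weeks were -1.45 for Sall1 and -1.50 for Mef2a, both called (adjusted p = 0.0281 and 0.0191, limma). Of the monocyte markers, 1 differed between genotypes at that week. The summed profile value of 5 monocyte markers was 1.34 to 1.49 in CKp25 mice and 0.12 to 0.52 in CK mice. Plac8 rose by 0.92 ± 0.11 (adjusted p = 3.05e-08, limma), and Ccr2 was not called (0.09, adjusted p = 0.697). No kept CKp25 cell of that week listed Chil3 at FPKM of 1 or more, and Ly6c2, Vcan and Chil3 did not pass the filter. Without the 66 cells that carried 3 or more markers of another cell type, the differences were -1.51 for Sall1 and -1.50 for Mef2a, both called (adjusted p = 0.0299 and 0.0297, limma).

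Whether the genotype difference itself changed between weeks was tested by interaction contrasts, and none of the 9 was called in any of 5 (limma). Against 0 weeks, the lowest adjusted p of a member was 0.263 at 1 week (Maf, 1.13% of all genes called), 0.185 at 2 weeks (Sall1, 2.63%) and 0.475 at 6 weeks (Mef2a, 1.8%), with 2, 3 and 1 members at an unadjusted p under 0.05 (9.49%, 12.6% and 9.39% of all genes). For 2 weeks against 1 week (1.71% of genes called) and 6 weeks against 2 weeks (0.0424%) no member had an unadjusted p under 0.05 (8.32% and 5.6% of all genes). The effect at 2 weeks minus that at 0 weeks was -1.70 ± 0.64 for Sall1 and -1.53 ± 0.63 for Mef2a. These contrasts share mice with the comparisons above and are not further evidence for them.

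Within a genotype, no factor was called between weeks in CK mice, where 0% of all genes were called at 1, 2 or 6 weeks against 0 weeks, and 2, 1 and 0 members had an unadjusted p under 0.05 (limma; 10.5%, 5.82% and 2.94% of all genes). In CKp25 mice Sall1 fell by 1.34 ± 0.42 between 0 and 6 weeks, called at an adjusted p of 0.0422 (limma; 2.38% of all genes fell), and no member was called at 1 week (0 at an unadjusted p under 0.05 against 23.7% of all genes, while 0.127% fell) or 2 weeks (2 at an unadjusted p under 0.05 against 25.1% of all genes, while 1.44% fell). The Sall1 call was lost on leaving out any of the 3 CKp25 mice at 0 weeks, CKp25 mouse 1, 2 or 3 at 6 weeks, CK mouse 1 at 0 weeks or CKp25 mouse 1 at 2 weeks, and also without cells with markers of another type. Without the first wells this count was 0, and without the 2 libraries that stand apart the Sall1 value was -1.36 ± 0.45 with an adjusted p of 0.0576, while Maf then fell by 1.97 ± 0.61 between 0 and 6 weeks (adjusted p = 0.0453, with 1.8% of all genes called lower). For Mef2a at 2 weeks, CK mice were 0.95 ± 0.44 above their level at 0 weeks and CKp25 mice -0.58 ± 0.44 from theirs, neither called.

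Single cells that listed Sall1, Mef2a and Mef2c together were also counted, a trio chosen after the values of these factors were seen. Their share was 54.4% to 57.3% in CK mice and 57.8% to 65.1% in CKp25 mice at 0 weeks. At 1 week it was 73.8% to 83.2% in CK mice and 50.5% to 76.1% in CKp25 mice, which overlapped. At 2 weeks it was 73.9% to 86.5% in CK mice and 54.3% to 64.7% in CKp25 mice, without overlap. The trio holds the 2 factors called lower at that week, so this is no further evidence. By share of cells, 6.34% of single genes were lower in every CKp25 mouse than in every CK mouse at 2 weeks. The CK mice at 2 weeks were all above the CK mice at 0 weeks, while the CKp25 mice of the 2 weeks overlapped. How often other trios separate in either way was not counted. At 6 weeks the ranges overlapped, at 47.7% to 75.8% and 46.2% to 56.1%. Genes per cell at 0 weeks (medians 2010.5 to 2238.5 in CK mice) were below those at 2 weeks, and the part of depth in these shares was not tested.

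The factors were also correlated with each other across the cells of each mouse. Over 36 pairs of factors, the median over mice of Pearson's r across cells ran from -0.05 to 0.13, the highest for Mef2a with Spi1. The values are sparse, and correlations this weak are no finding. Each factor was also correlated with the mean of 9 homeostatic genes (P2ry12, Tmem119, Siglech, Slc2a5, Olfml3, Gpr34, Cx3cr1, P2ry13 and Fcrls) in the same cells. Sall1 had the highest value, a median r of 0.30, above 0 in 25 of 25 mice and between 0.10 and 0.47. Mef2c followed with 0.21, Mef2a and Maf with 0.16, Spi1 with 0.13 and Sall3 with 0.11, while Cebpa (0.07), Runx1 (0.06) and Cebpb (0.01) were lowest. The order was not the same in every group. In CK mice at 1 week the median r of Sall1 was 0.13, below Mef2c (0.21), Maf (0.16) and Mef2a (0.14). In CK mice at 2 weeks it was 0.12, below Spi1 (0.17) and Mef2a (0.16). In every other group Sall1 was highest, from 0.26 in CKp25 mice at 0 weeks to 0.42 in CKp25 mice at 2 weeks. Cells share library and depth in these correlations: Sall1 correlated with genes per cell at a median r of 0.17 and the list at 0.27.

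Many homeostatic genes are known to depend on SALL1. Of the 9, 1 fell at 1 week, 7 at 2 weeks and 6 at 6 weeks, while 0.392%, 2.24% and 1.54% of all tested genes were called lower. Their median differences were -1.13, -1.81 and -1.92, and those of all tested genes 0.06, -0.00 and -0.04. The list was chosen with earlier results of these mice known and is not independent evidence of its direction. At 2 weeks P2ry12, a purinergic receptor of microglial processes, fell by 3.20 ± 0.48 (adjusted p = 5.47e-06, limma), and P2ry13 fell by 3.38 ± 0.51. Slc2a5, a fructose transporter, fell by 3.24 ± 0.61 and Gpr34 by 2.37 ± 0.47. Cx3cr1, Tmem119 and Siglech fell by 1.81, 1.79 and 1.60 at 2 weeks, and Fcrls and Olfml3 were not called there (-1.20 and -0.39). At 6 weeks P2ry12 (-2.81) and Slc2a5 (-3.25) were called lower. Sall1 itself was not called between genotypes then (-0.83 ± 0.42). The change in its difference from 2 weeks was not called either (0.68 ± 0.62, adjusted p = 0.949, limma).

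Of 11 genes that PU.1 is known to drive, 1 rose at 2 and 6 weeks and none fell, where 6.14% and 4.21% of all tested genes were called higher, with medians of -0.42, 0.66 and 0.07 at 1, 2 and 6 weeks. The gene that rose was Csf2ra, the alpha chain of the GM-CSF receptor, by 2.18 ± 0.46 at 2 weeks (adjusted p = 0.000938) and 1.65 ± 0.43 at 6 weeks (adjusted p = 0.011, limma). Csf1r, the receptor on which microglia depend for survival, differed by -0.93 ± 0.45 at 2 weeks and was not called (adjusted p = 0.236). Of 11 inflammatory genes tied to C/EBP beta, 4 passed the filter on low values, so counts over them do not stand for the list. Tnf rose by 1.77 ± 0.28 at 1 week and 1.35 ± 0.28 at 2 weeks, Il1b by 0.61 ± 0.18 at 2 weeks and 1.38 ± 0.17 at 6 weeks, Il6 fell by 0.52 ± 0.13 at 6 weeks, and Socs3 was not called. Lcn2 and Saa3 were at 0 or under FPKM of 1 in every kept cell of all 25 mice.

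**Figure D5:**
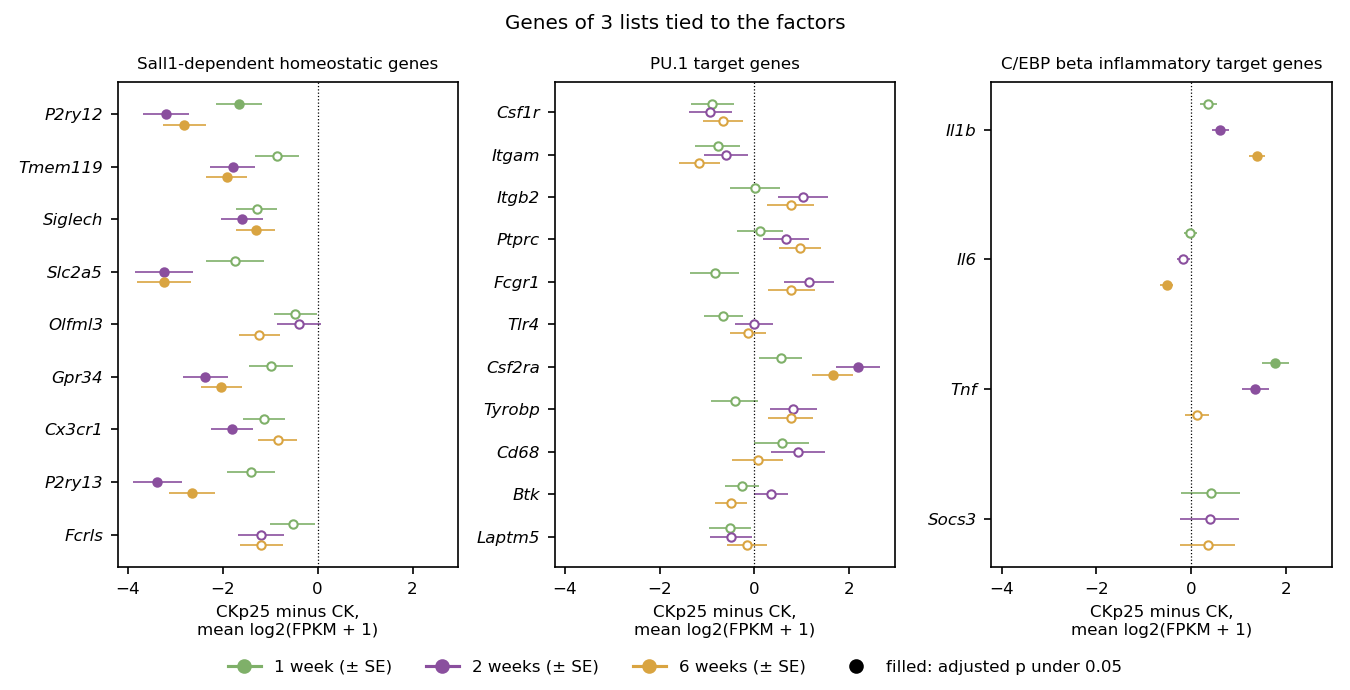
CKp25 minus CK difference in profile value with its SE for tested genes of 3 lists tied to Sall1, PU.1 and C/EBP beta, at 1, 2 and 6 weeks, filled where called at an adjusted p under 0.05. Homeostatic genes lie to the left at 2 and 6 weeks, PU.1 target genes lie on both sides with Csf2ra to the right, and Tnf and Il1b lie to the right at different weeks.

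Relatives and partners of the factors were read as lists. Of 15 family members 7 passed the filter and none was called at 1, 2 or 6 weeks. The nearest was Cebpd at 6 weeks, with -1.03 ± 0.38 (adjusted p = 0.124, limma). Sall4, Mef2b, Spic and Cebpe were listed in no cell of the median mouse. Of 26 partners and regulators 23 were tested, and 1 was called: Rbbp7, a histone-binding subunit of the NuRD complex that SALL1 recruits, rose by 1.41 ± 0.30 at 1 week (adjusted p = 0.00226, limma), when 3.9% of all tested genes were called higher. Of 24 further macrophage transcription factors 22 were tested. Atf3, a stress-response factor, rose by 1.46 ± 0.43 at 2 weeks (adjusted p = 0.0252), and Bhlhe40 rose by 0.64 ± 0.12 at 2 weeks and 0.99 ± 0.12 at 6 weeks (adjusted p = 0.000297 and 3.22e-08, limma). Of all tested genes, 6.14% were called higher at 2 weeks and 4.21% at 6 weeks. Bhlhe40 was listed in 19.6% of cells at 6 weeks in CKp25 mice and in 0.366% in CK mice, so the comparison at that week was against values near the floor.

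Macrophages of the brain's borders differ from microglia in these factors, and a few could have passed the CD11b and CD45 gate. The kept wells, first wells included, held 45 with at least 3 of 8 border macrophage markers, from 21 mice. Of 66 kept wells with 3 or more markers of another type, 45 carried these, 23 oligodendrocyte, 9 neuron and 8 astrocyte markers, so some carried several types. The 45 were not a sorted population, whether all were single cells was not tested, and the markers that chose them are no result. Sall1 was listed in 57.8% of them and in 82.3% of the 1983 other cells, and Mef2a in 75.6% and 85.9%. Maf was listed in 93.3% and 67.7%, Cebpb in 48.9% and 17.2%, Cebpa in 48.9% and 28.8%, and Runx1 in 75.6% and 61.0%. Spi1 was at 77.8% and 71.7%, Sall3 at 46.7% and 41.5%, and Mef2c at 88.9% and 89.1%. Their median number of genes was 2781 against 2360, and P2ry12 was still listed in 86.7% of them. The summed profile value of the 8 markers was 2.15 to 3.75 in CKp25 mice at 6 weeks and 0.84 to 1.95 in CK mice, and its part in the Sall3 and Mef2a values of that week was not tested. At 2 weeks the ranges overlapped (0.50 to 0.83 and 0.40 to 2.15).

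Over the 25 mouse profiles, the tested genes whose pattern was most like that of Sall1 were Srgap2 (r = 0.95), Tnrc6b (0.92) and Nfatc1 (0.91). For Mef2a they were Pip4k2a (0.89), B4galt1 (0.86) and Zfp710 (0.85). For Maf they were Itpripl1 and Hmha1 (both 0.93) and Nlk (0.91), and for Mef2c they were Marcks (0.83), Cd53 and Tcf4 (both 0.82). Sall3 was nearest to Slc16a6 (0.86) and Tmem173 (0.84), Cebpa to Chic2 (0.79) and Cebpb to Lima1 (0.84). For Spi1, Camk1 (0.93) and Abhd12 (0.92) ranked first. Without the 2 libraries that stand apart the first for Spi1 was Tnpo3 (0.87) and for Runx1, Birc6 (0.79) in place of Atxn2l (0.90). Among the factors themselves, Maf and Mef2c were nearest to each other (0.81 over 25 mice, 0.87 over 23), and so were Sall1 and Mef2a over 25 mice (0.73). Over 23 mice Mef2a was nearest to Mef2c (0.81), with Sall1 and Mef2a at 0.72. The mice share genotype and week in these values, which describe the pattern only.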

How the data were processed

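Full-length cDNA of sorted hippocampal microglia was made by Smart-seq2 with oligo-dT priming and 21 PCR cycles, per the labels' protocols. The authors deposited 1 table of FPKM per gene and well. Cufflinks 2.2 and the mm9 build are named in the submitters' processing notes; the aligner's settings and the annotation are not given in the sources used here. FPKM hold no counts, so depth per value is unknown and no counting interval is given. The protocol does not mark strand, so antisense transcripts cannot be told apart.

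Wells listing 1000 genes or more (FPKM not below 1) were kept (2028 of 2208, 180 left out). No doublet caller was run. A mouse's profile value was the mean over its kept cells of log2(FPKM + 1). A gene was tested if 3 mice or more each listed it in 10% of their cells (9435 genes). limma 3.58.1 (R 4.3.3, trend and robust) was fitted to 25 profiles in 8 groups with 17 residual degrees of freedom, 2-sided, with Benjamini-Hochberg adjustment over all tested genes and a threshold of 0.05. Differences are on the log2(FPKM + 1) scale and understate changes of low genes. Shares were checked by exact permutation over mice. The fit was tested on simulated data. Further steps used Python 3.11.15, numpy 2.4.6 and pandas 2.3.3.

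The members and all gene lists were chosen with earlier results of these data known, and lists were assigned from general knowledge. Named beside the 9 members were list genes past the threshold at 1, 2 or 6 weeks and up to 4 of smallest p, the 3 genes most correlated with each member, and cell type markers. Alternatives covered the pseudocount, filters, wells, scaling, fit, replicate block and omission of each mouse. Leaving out the pair of libraries that stand apart was added after seeing the data. The values of some single genes of the lists are not reported here and were left out of the lists. Markers of microglia and 9 other cell types were read.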

Additional observations from a re-analysis of the deposited data

Results flagged for a closer look

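The share of cells listing Spi1 in CKp25 mouse 1 at 6 weeks was 24.4%, far below the 70.2%, 67.3% and 72.8% of the other 3 CKp25 mice of that week. The gap to the nearest mouse was 0.89 of the group's range, above the 95% critical value of Dixon's test for 4 mice. Of 18 values tested in this way (share and profile value of the 9 factors in the only group of 4 mice) this was the 1 that passed, and chance alone passes about 1 in 20. Runx1 in the same mouse reached 0.77 by share, and the Spi1 profile value 0.77, both under the critical value.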

How the results depend on the processing

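Direction was kept under every alternative for Sall1, Sall3, Mef2a, Mef2c, Maf and Cebpb at 1 and 2 weeks. The count of factors called at 1 week was 0 in place of 1 with log2 of the mean FPKM, a pseudocount of 0.1, no filter on low values, a filter at 25% of cells, cells with 1500 to 3500 genes, or the 2 libraries that stand apart left out, and 2 with quantile normalization. At 2 weeks it was 1 in place of 2 with log2 of the mean FPKM, a pseudocount of 0.1 or a fit of the 2 groups alone (where Cebpb was called), and 4 with quantile normalization. At 6 weeks it was 1 in place of 0 with log2 of the mean FPKM, no filter, the 25% filter, cells with 1500 to 3500 genes or the pair left out, 2 with cells scaled to the same sum (with or without Rn45s and small RNA), quantile normalization, limma arrayWeights or genes per cell as a covariate, and 3 with wells of at least 2000 genes. Interaction calls were 1 in place of 0 with quantile normalization and with arrayWeights. Calls in CKp25 mice against 0 weeks were 0 in place of 1 without first wells or without cells with markers of another type, 2 with wells of at least 2000 genes, the covariate or the pair left out, 3 with arrayWeights or a fit of the groups alone, and 7 with quantile normalization. Leaving out each of the 25 mice in turn gave 0 calls at 0 weeks, 0 to 1 at 1 week, 0 to 3 at 2 weeks, 0 to 2 at 6 weeks, 0 interaction calls, 0 calls over time in CK mice and 0 to 2 in CKp25 mice. The causes were not tested.

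Differences that turned in sign were all uncalled. At 0 weeks log2 of the mean FPKM gave -0.02 for Sall1 and -0.06 for Mef2c. At 1 week Runx1 was -0.02 with log2 of the mean FPKM and Cebpa 0.01 with scaling without Rn45s and small RNA and with arrayWeights. Without the pair of libraries Spi1 was -0.45 and Runx1 -0.41 at 1 week, and Runx1 was 0.26 at 6 weeks. Leaving out 1 mouse gave both signs at 0 weeks for Sall1 (-0.05 to 0.46), Mef2a (-0.09 to 0.18), Mef2c (-0.07 to 0.27), Spi1 (-0.39 to 0.05), Maf (-0.40 to 0.78), Runx1 (-0.24 to 0.01), Cebpa (-0.07 to 0.30) and Sall3 (-0.26 to 0.18, 0.00 over all mice). It did so at 1 week for Spi1 (-0.45 to 2.22), Runx1 (-0.41 to 0.60) and Cebpa (-0.30 to 0.08), at 2 weeks for Cebpa (-0.34 to 0.07), and at 6 weeks for Runx1 (-0.64 to 0.26), Cebpa (-0.58 to 0.09) and Cebpb (-0.24 to 0.41). With the mouse number as a replicate block, the counts were 0 at 0 weeks, 0 at 1 week (Maf, adjusted p = 0.0541), 2 at 2 weeks, 1 at 6 weeks (Mef2a), 0 interaction calls, 0 over time in CK mice and 2 in CKp25 mice. Mouse numbers were not taken as pairing the animals, since deviations of same-numbered mice correlated above 0.1 in 8 of 12 pairs (-0.12 to 0.35) and not in all. Of 27 pairs of different number 6 were above 0.1 (-0.34 to 0.22), and 16 of 24 mice correlated best with their own number, a hint from the data and not the design. Shares of cells moved by less than 1 SD in 138 of 144 values under other thresholds and cell sets. Log2 of the mean FPKM moved the median of all genes to -0.17, -0.35 and -0.18 at 1, 2 and 6 weeks, and the Sall1 and Mef2a differences at 2 weeks to -1.12 and -1.27. FPKM without counts limit what can be said of low genes such as Cebpb.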
